A study of Mus musculus with 20 samples.

Results

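The genes described here are 10 targets and regulators of bone morphogenetic protein (BMP) signalling: Id1, Id2, Id3, Id4, Smad6, Smad7, Bambi, Msx1, Msx2 and the ligand gene Bmp4. They were chosen by name, and every probe set that the platform annotation assigns to one of these symbols was taken. That gave 17 probe sets for 10 genes, out of 18193 genes on the array. All 10 passed the filter on low values and were among the 14010 genes tested. RNA was hybridised to 20 arrays, 2 biological duplicates in each of 10 groups, which crossed 5 male mouse cell lines of a C57BL/6;129 background with 2 stages. All lines derive from BVSCR26rtTA embryonic stem cells (ESCs) and share the reporters Blimp1-mVenus and stella-ECFP and the doxycycline-responsive activator Rosa26-rtTA. The BP14A line carries inducible Avi-Blimp1, 3xFLAG-Prdm14 and V5-Tfap2c, the Blimp1 line only Avi-Blimp1, the Prdm14 line only 3xFLAG-Prdm14 and the Tfap2c line only V5-Tfap2c; the parental line carries none of the 3. The transgenes sit in piggyBac vectors behind a tet-responsive minimal CMV promoter. At day 1 the cells were aggregates (2000 cells per well) after 24 h in GK15 medium with 1.5 µg/ml doxycycline, parental aggregates included, and no added cytokine is stated. The other stage was epiblast-like cells (EpiLCs, a culture state near the early post-implantation epiblast) at 36 h, the cells from which aggregates were made. Each line is 1 clone, so transgene and clone cannot be told apart, and aggregates without doxycycline were not analysed here.

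BMP ligands bind receptor kinases that phosphorylate SMAD1 and SMAD5, which enter the nucleus with SMAD4 and raise transcription of a small set of direct targets. The Id genes are the best known of these; their products are helix-loop-helix proteins without a DNA-binding region that hold E proteins and related factors off DNA. Smad6 and Smad7 encode inhibitory SMADs and Bambi a receptor decoy, and all act as negative feedback, while Msx1 and Msx2 encode homeobox factors downstream of BMP. In the mouse embryo BMP4 from the extraembryonic ectoderm induces the germ cell fate in the epiblast, where Prdm1 (the gene of BLIMP1), Prdm14 and Tfap2c (AP2γ) are switched on. The comparison of lines asks what these factors do to BMP target genes when expressed directly in aggregates.

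The 250 bases before the transcript start listed in the promoter table are shown for 4 members, because Id2, Id3, Id4 and Smad6 gave the line-specific changes described below and their windows were in the table used. The sequences are from RefSeq, build GRCm38.p6, written 5′ to 3′ on the strand of the gene: Id2 at chr12:25096093-25096342 (minus), Id3 at chr4:136143572-136143821 (plus), Id4 at chr13:48260866-48261115 (plus) and Smad6 at chr9:64022060-64022309 (minus). For Smad6 the listed start lies inside the annotated gene, so the last 26 bases of its stretch are within the gene. Capitals mark matches to the motifs searched.
Id2: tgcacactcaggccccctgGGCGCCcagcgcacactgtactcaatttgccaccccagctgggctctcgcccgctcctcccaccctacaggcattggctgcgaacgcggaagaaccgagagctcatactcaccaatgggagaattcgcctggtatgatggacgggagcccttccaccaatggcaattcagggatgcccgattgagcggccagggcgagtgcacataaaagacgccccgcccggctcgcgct
Id4: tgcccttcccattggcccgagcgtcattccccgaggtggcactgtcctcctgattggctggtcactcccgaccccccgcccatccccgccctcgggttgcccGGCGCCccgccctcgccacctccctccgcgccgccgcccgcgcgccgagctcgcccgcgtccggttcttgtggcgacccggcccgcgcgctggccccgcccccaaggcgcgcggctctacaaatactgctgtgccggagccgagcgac
Id3: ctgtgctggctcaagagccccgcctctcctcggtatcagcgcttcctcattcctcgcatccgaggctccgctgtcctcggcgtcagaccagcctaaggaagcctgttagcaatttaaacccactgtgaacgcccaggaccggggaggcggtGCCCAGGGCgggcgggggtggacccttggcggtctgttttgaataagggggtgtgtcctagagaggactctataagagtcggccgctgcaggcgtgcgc
Smad6: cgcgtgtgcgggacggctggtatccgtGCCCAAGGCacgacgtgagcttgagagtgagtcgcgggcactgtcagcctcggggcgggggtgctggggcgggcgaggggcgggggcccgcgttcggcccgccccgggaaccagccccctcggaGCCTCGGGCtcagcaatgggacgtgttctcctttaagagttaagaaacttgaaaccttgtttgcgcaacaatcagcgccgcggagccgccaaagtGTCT
The 5 motifs were searched on both strands in windows of 300 bases, which reach 50 bases past the start, in the 7 members with a window and in all 32851 windows of the table. GGCGCC, a GC-rich element bound by SMAD1 and SMAD5, was present at position -231 from the start of Id2 and at -148 of Id4, and in 11.9% of all windows. GTCTAGAC, the palindrome bound by SMAD3 and SMAD4, was present in Smad6 at -4 from the listed start, inside the annotated gene, so that its first 4 letters close the printed stretch, and in 0.213% of all windows. The AP-2 palindrome GCCNNNGGC was present at -99 of Id3 and at -223 and -99 of Smad6, and in 16.6% of all windows. GAAAG, a core of the BLIMP1 site, was found among the 7 members only in Bmp4 and in 57.3% of all windows. GGTCTC, a core of the PRDM14 site, was found in none of the 7 and in 16.4% of all windows. No match overlapped another, and a match of letters is a description only.

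Values are on the log2 scale of the authors' deposited table, which ran from 0 to 13.83, with array medians between 4.60 and 4.86. Values of different probe sets cannot be set against each other. A gene was called when its limma p, adjusted by Benjamini-Hochberg over all 14010 genes, was under 0.05 and the gene differed by 1 log2 unit (2-fold) or more; errors of changes are limma standard errors (SE). The genes of the transgenes gave a mixed check. Tfap2c read 11.55 and 11.58 in BP14A, 9.38 and 9.81 in Blimp1, 10.70 and 10.91 in Prdm14 and 5.80 and 6.08 in Tfap2c aggregates, against 6.38 and 6.29 in parental aggregates. Prdm1 averaged 8.67, 6.36, 7.31 and 5.01 in the same lines, against 4.96 in parental aggregates. The only Prdm14 probe set lay near background in every line. Whether these probe sets lie inside the transgenes was not tested, so the Tfap2c line is named by its label, and a higher Tfap2c level was not seen in it.

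Among the Id genes on day 1, Id4 rose in 3 of the 4 transgenic lines and Id2 in the Blimp1 line, while Id3 fell in the Blimp1 line. Id4, whose product sustains progenitor states in the nervous system and in spermatogonial stem cells, showed the widest range of all members. Its 2 arrays read 8.87 and 8.92 in BP14A, 6.30 and 6.87 in Blimp1, 8.07 and 8.26 in Prdm14 and 4.81 and 4.64 in Tfap2c aggregates, against 5.12 and 4.93 in parental aggregates. The BP14A, Prdm14 and Blimp1 arrays thus stood in 3 separate steps above the parental arrays, and the Tfap2c arrays were the lowest. Against the parental line Id4 rose by 3.87 ± 0.23 in BP14A (14.6-fold, adjusted p = 1.2e-07, limma), by 3.14 ± 0.23 in Prdm14 (8.82-fold, adjusted p = 9.74e-07) and by 1.56 ± 0.23 in Blimp1 aggregates (2.95-fold, adjusted p = 0.000657). The Blimp1 call was lost when only the arrays compared were fitted (adjusted p = 0.0746, limma). In the Tfap2c line the difference was -0.30 (95% interval -0.79 to 0.19). BP14A aggregates exceeded Prdm14 aggregates by 0.73 (95% interval 0.24 to 1.22), which did not pass the test (adjusted p = 0.0877, limma). The other 2 Id4 probe sets kept the order of BP14A, Prdm14, Blimp1 and parental aggregates, with changes from 3.21 to 5.05 in BP14A, 2.35 to 4.25 in Prdm14 and 1.15 to 2.48 in Blimp1, all called. The upper value of each range is from a probe set with a parental day 1 mean of 3.07, under the filter level of 3.95, so its size is approximate.

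Id2, a partner of E proteins in lymphoid and many other lineages, was highest in the Blimp1 line. Its values were 7.39 and 7.49 in BP14A, 8.74 and 8.86 in Blimp1, 7.33 and 7.35 in Prdm14 and 6.28 and 6.21 in Tfap2c aggregates, against 6.31 and 6.68 in parental aggregates. No Blimp1 array overlapped any other line, BP14A and Prdm14 arrays lay together above the parental ones, and Tfap2c arrays lay just below them. The rise was 2.31 ± 0.23 in the Blimp1 line (4.94-fold, adjusted p = 4.15e-05, limma). The differences of 0.95 in BP14A (adjusted p = 0.00811) and 0.85 in Prdm14 aggregates (adjusted p = 0.0176) had limma p-values under the threshold and were smaller than 2-fold. A second Id2 probe set gave 2.37 in Blimp1, 0.99 in BP14A and 0.88 in Prdm14 aggregates. The third Id2 probe set read between 4.47 and 5.23 on all 20 arrays and gave 0.05 in the Blimp1 line, so the probe sets disagree.

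Id3 and Id1, which are redundant in vascular and neural development of the mouse, moved less. Id3 read 9.29 and 9.61 in BP14A, 7.40 and 7.70 in Blimp1, 8.71 and 8.81 in Prdm14 and 8.96 and 8.82 in Tfap2c aggregates, against 8.43 and 8.79 in parental aggregates. Both Blimp1 arrays were the lowest and both BP14A arrays the highest of the day 1 set, with the other lines in between. Id3 fell by 1.06 ± 0.14 in the Blimp1 line (2.09-fold, adjusted p = 0.000328, limma). That call is close to the size limit: the change was -0.91 without Blimp1 day 1 replicate 1 and -0.88 without parental day 1 replicate 2, and with only the arrays compared the adjusted p was 0.0920 (limma). In BP14A aggregates Id3 differed by 0.84 ± 0.14 in the opposite direction (adjusted p = 0.000637, limma), under the size limit. Id1 read 6.84 and 6.63 in BP14A, 7.07 and 6.91 in Blimp1, 6.58 and 6.69 in Prdm14 and 6.63 and 6.66 in Tfap2c aggregates, against 6.63 and 6.15 in parental aggregates. Its Blimp1 arrays were the highest of the 20, with a difference of 0.60 ± 0.18 (adjusted p = 0.0369, limma) that is under 2-fold, and the parental duplicates lay far apart.

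**Figure D1:**
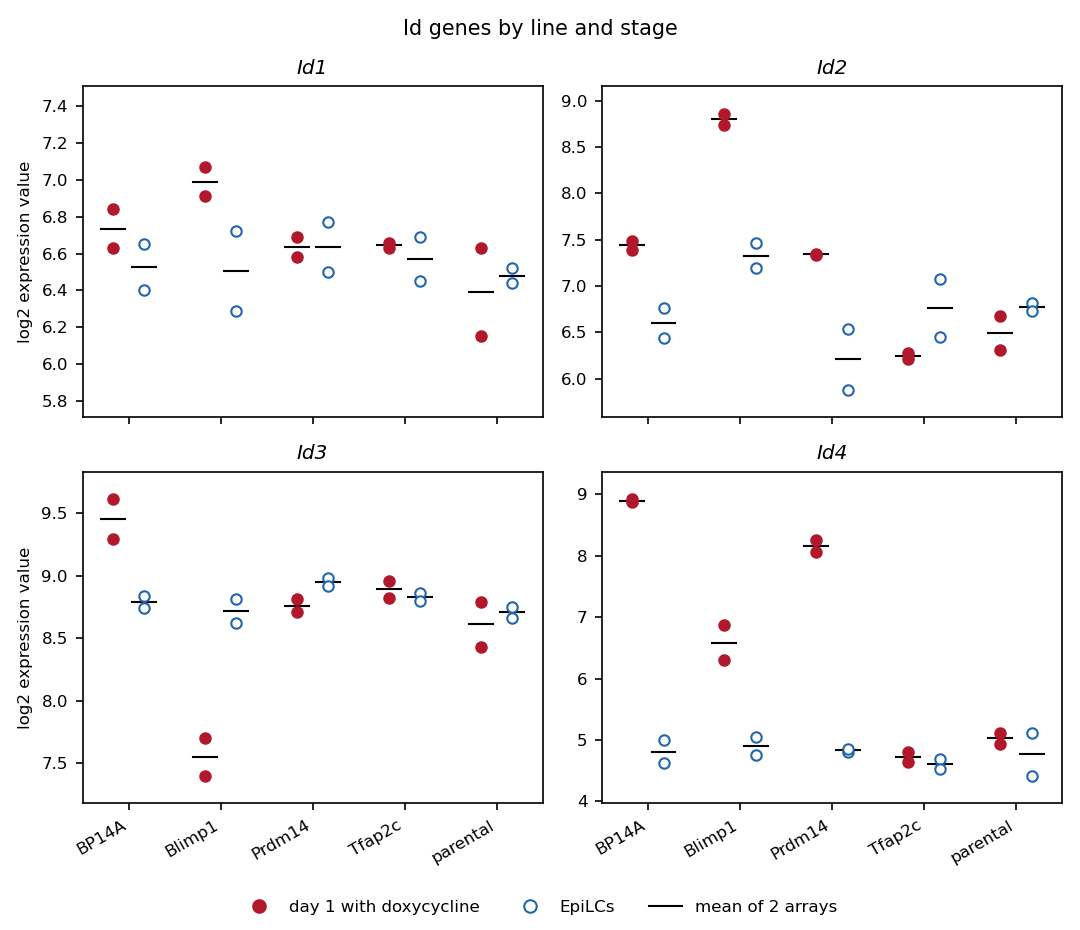
Log2 value of each Id gene (1 panel per gene, each probe set with its own axis) by line, with aggregates at day 1 and EpiLCs; points are single arrays and lines the means of 2 arrays. Id4 in BP14A (8.87 and 8.92) and Prdm14 aggregates and Id2 in Blimp1 aggregates (8.74 and 8.86) stand above all other arrays, and Id3 in Blimp1 aggregates (7.40 and 7.70) below them.

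On day 1 the calls of the inhibitory Smad genes against the parental line split by line. Smad6 was called lower in BP14A and Prdm14 aggregates, and Smad7 only in Blimp1 aggregates. Smad6, whose product blocks BMP-type receptors and SMAD1, read 2.26 and 4.02 in BP14A, 4.99 and 4.99 in Blimp1, 2.55 and 2.68 in Prdm14 and 5.20 and 5.35 in Tfap2c aggregates, against 5.47 and 5.35 in parental aggregates. The BP14A and Prdm14 arrays lay below all other arrays, and the BP14A duplicates had an SD of 1.24, the widest of any group among the members. Smad6 fell by 2.27 ± 0.38 in BP14A (adjusted p = 0.000725, limma) and by 2.80 ± 0.38 in Prdm14 aggregates (adjusted p = 0.000192). The BP14A and Prdm14 means lay under the filter level, where values are near background, and the sizes of both falls are approximate. Without BP14A replicate 1 the BP14A change was -1.39, and fitted on only the arrays compared it was not called (adjusted p = 0.109, limma). In Blimp1 aggregates the difference was -0.42 (95% interval -1.25 to 0.41).

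Smad7, whose product inhibits both TGFβ and BMP receptors, read 9.25 and 9.20 in BP14A, 7.16 and 7.22 in Blimp1, 8.86 and 8.92 in Prdm14 and 9.42 and 9.30 in Tfap2c aggregates, against 9.32 and 9.28 in parental aggregates. The Blimp1 arrays were the lowest by a wide gap, the Prdm14 arrays a little below the rest, and the BP14A arrays just under the parental ones. Smad7 fell by 2.11 ± 0.10 in the Blimp1 line (4.32-fold, adjusted p = 1.63e-07, limma), and its other probe set gave -1.99. The BP14A difference was -0.08 (95% interval -0.30 to 0.15), and the Prdm14 difference of -0.41 (adjusted p = 0.0121, limma) was under 2-fold. Bambi read 7.28 and 7.25 in BP14A, 6.60 and 6.51 in Blimp1, 7.46 and 7.31 in Prdm14 and 7.06 and 7.06 in Tfap2c aggregates, against 7.09 and 7.15 in parental aggregates. Its Blimp1 arrays were again lowest, by 0.57 ± 0.08 (adjusted p = 0.000405, limma), and Prdm14 arrays highest, by 0.27 ± 0.08 (adjusted p = 0.0243); both are smaller than 2-fold.

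Bmp4, Msx1 and Msx2 gave no call in any line on day 1. The ligand gene Bmp4 stayed between 4.93 and 5.66 on all 20 arrays, with day 1 differences from the parental line of 0.04 in BP14A, -0.18 in Blimp1, 0.09 in Prdm14 and -0.05 in Tfap2c aggregates. Msx2 stayed between 5.90 and 6.55 on all arrays, with parental EpiLCs at 6.47 and 6.47 above the other EpiLC arrays, and its second probe set lay below the filter level throughout, between 0.89 and 2.85. Msx1 lay near the filter level, between 3.10 and 4.64. Its BP14A arrays, at 3.41 and 3.22, were below the parental arrays, at 4.22 and 3.77, a difference of -0.68 ± 0.31 that did not pass the test (adjusted p = 0.139, limma).

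**Figure D2:**
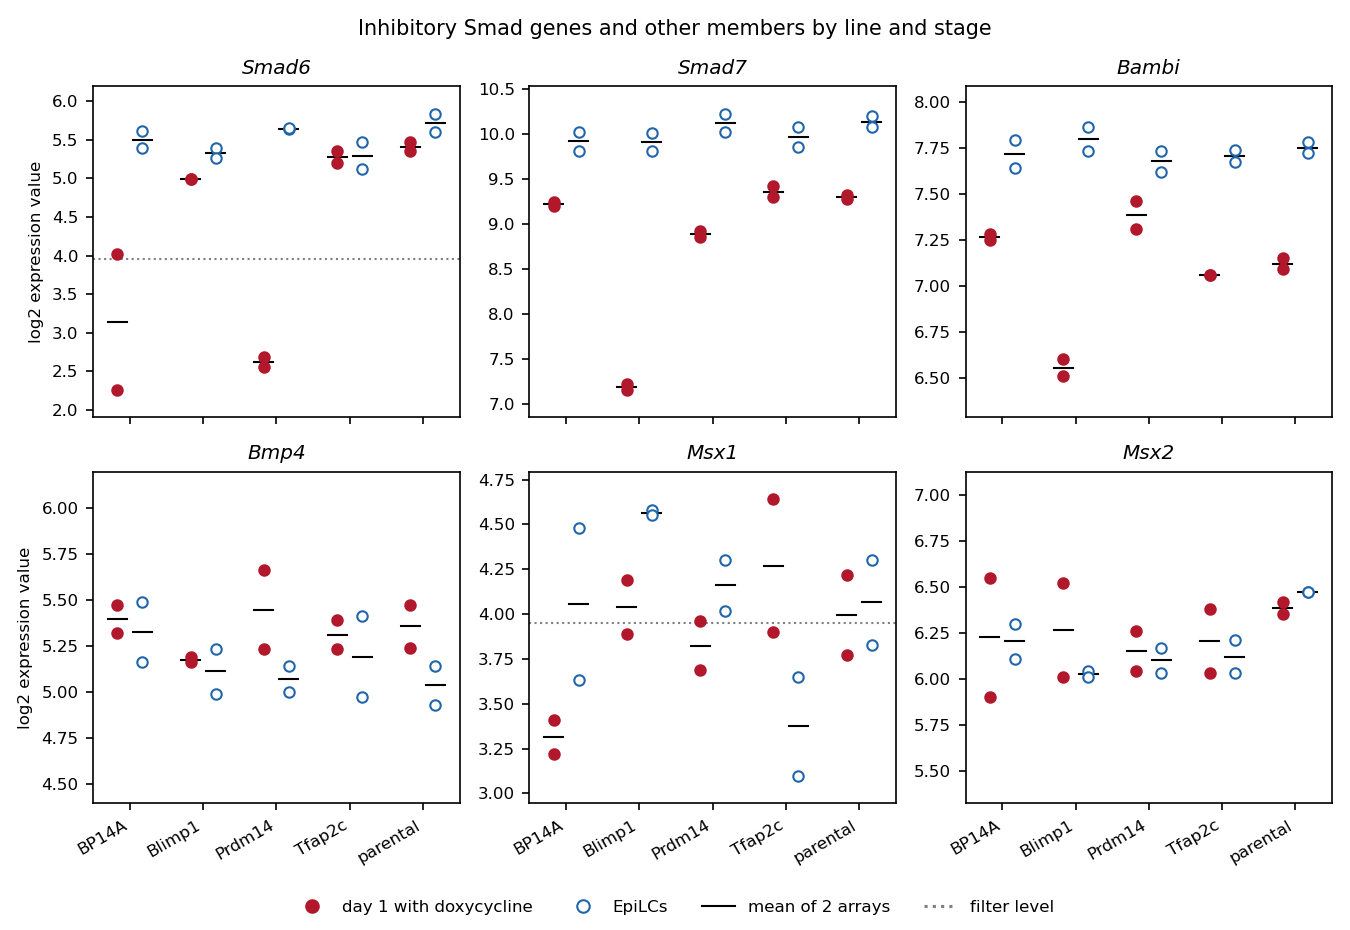
Log2 value of Smad6, Smad7, Bambi, Bmp4, Msx1 and Msx2 (1 panel per gene) by line, with aggregates at day 1 and EpiLCs; points are arrays, lines are means of 2 arrays and the dotted line is the filter level of 3.95. The Smad6 means drop under that level in BP14A and Prdm14 aggregates, with 1 BP14A array just above it at 4.02. Smad7 is lowest in Blimp1 aggregates (7.16 and 7.22). Bmp4 lies between 4.93 and 5.66 and Msx2 between 5.90 and 6.55 on all arrays.

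Counted by line, the members changed on day 1 in 3 of the 4 transgenic lines. In BP14A aggregates 2 of 10 members were called against the parental line (Id4 higher, Smad6 lower), where 6.62% of all tested genes were called. In Blimp1 aggregates 4 of 10 were called (Id2 and Id4 higher, Id3 and Smad7 lower), against 2.6% of all genes. In Prdm14 aggregates 2 of 10 were called (Id4 higher, Smad6 lower), against 5.38% of all genes. In Tfap2c aggregates limma called 0 of 10, with 0 members at an unadjusted p under 0.05, where 0.0286% of all genes were called; the member differences ran from -0.30 to 0.28. The members were picked by name with earlier results of these data known, and the 4 comparisons share the same parental arrays, so their values stand side by side without a test of overlap. The median size of change over the 10 members was 0.51 in BP14A, 0.58 in Blimp1, 0.26 in Prdm14 and 0.22 in Tfap2c aggregates, beside 0.22, 0.19, 0.21 and 0.10 over all tested genes. Without parental day 1 replicate 2 the BP14A count was 4, with Id2 and Id3 added; fitted on only the arrays compared it was 1 in BP14A and 2 in Blimp1 aggregates.

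Markers of cell state moved with the lines. Of 5 early germ cell genes, 4 (Prdm1, Dppa3, Tfap2c and Kit) were called higher in BP14A, in Blimp1 and in Prdm14 aggregates and 0 in Tfap2c aggregates. Prdm1 is the gene of a transgene in BP14A and Blimp1, and Tfap2c in BP14A. Whether their probe sets read the transgenes there was not tested, while Dppa3 and Kit have no transgene in any line. Of 6 naive ESC markers, 4, 2, 5 and 0 were called higher in BP14A, Blimp1, Prdm14 and Tfap2c aggregates. The summed linear level of 6 EpiLC markers was 13805 to 14429 in BP14A, 19491 to 20061 in Blimp1, 16381 to 16414 in Prdm14 and 22546 to 23227 in Tfap2c aggregates, against 22738 to 24013 in parental aggregates. These markers did not move together: Sox2 was called higher in BP14A, Blimp1 and Prdm14 aggregates, while 3, 1 and 2 of the 6 were called lower there. The summed level of 6 neural markers was 189 to 201, 228 to 266, 266 to 278 and 390 to 448 in the same lines, against 410 to 431 in parental aggregates. A linear sum weighs the brightest probe sets most, and in Blimp1 aggregates the neural markers did not move together. There Nes averaged 5.37 against 7.87 in parental aggregates, with lower means of Sox1 and Zic1 too. Means of Pax6, Pax3 and Six3 were higher than in parental aggregates. Sums of 7 mesoderm markers were 197 to 203, 193 to 221, 197 to 213 and 258 to 300, against 213 to 241 in parental aggregates. Sums of 6 feeder fibroblast markers were 251 to 264, 552 to 684, 383 to 455 and 419 to 424, against 422 to 430 in parental aggregates. Of these, Acta2 alone was called in Blimp1 aggregates, where it was higher by 1.68 ± 0.38; Thy1 and Dcn were called lower in BP14A and Thy1 in Prdm14 aggregates. No listed marker was at 0 on any array. The part of these shifts in the members' changes was not tested, and in whole aggregates fewer cells of a type and less RNA per cell cannot be told apart.

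**Figure D3:**
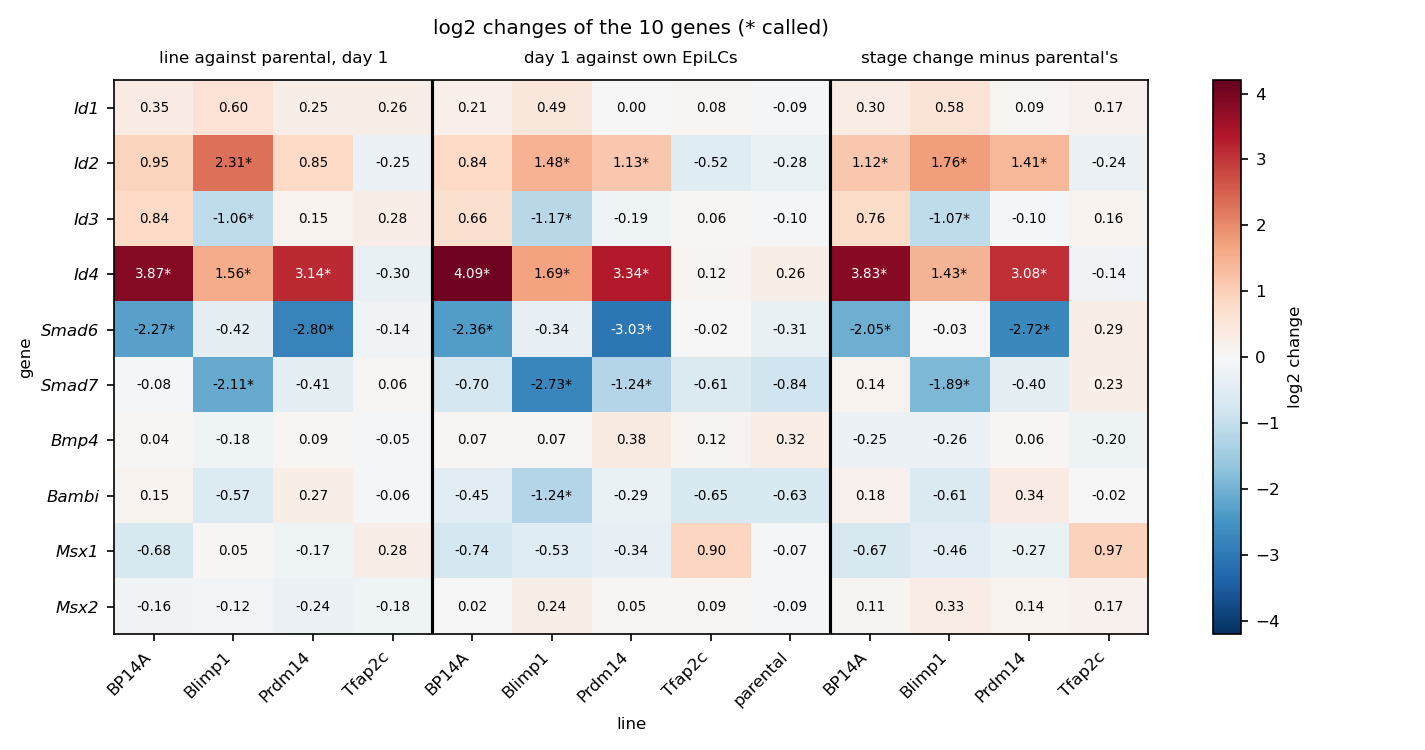
Heat map of log2 changes of the 10 members (rows) by line (columns) for day 1 against the parental line, day 1 against the line's own EpiLCs and the stage change minus that of the parental line, from blue (lower) to red (higher), with asterisks on called changes. Id4 is high and Smad6 low in BP14A (3.87 and -2.27 on day 1) and Prdm14 (3.14 and -2.80), the Blimp1 line has high Id2 with low Id3 and Smad7, and the Tfap2c and parental columns hold no called cell.

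Before doxycycline the lines were close. In EpiLCs limma called 0 of 10 members in each of the BP14A, Blimp1, Prdm14 and Tfap2c lines against the parental line, where 0.0143%, 0.0785%, 0.0357% and 0.0286% of all genes were called. At an unadjusted p under 0.05 there were 0, 1, 1 and 1 members in these lines. Id4 in EpiLCs read 5.00 and 4.62 in BP14A, 5.04 and 4.75 in Blimp1, 4.81 and 4.85 in Prdm14 and 4.69 and 4.52 in Tfap2c, against 5.11 and 4.42 in parental cells. These ranges overlap. Id2 in EpiLCs read 6.76 and 6.44 in BP14A, 7.46 and 7.19 in Blimp1, 6.54 and 5.88 in Prdm14 and 7.08 and 6.45 in Tfap2c, against 6.82 and 6.73 in parental cells. Both Blimp1 arrays thus lay above all other EpiLC arrays before doxycycline, with a difference of 0.55 ± 0.23 from parental that did not pass the test (adjusted p = 0.406, limma). The Prdm14 difference was -0.57 (adjusted p = 0.805, limma).

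In the parental line Smad7 and Bambi differed between aggregates and EpiLCs, below the size of a call; aggregation, doxycycline, medium and time cannot be told apart in this comparison. Smad7 read 9.32 and 9.28 in parental aggregates, against 10.20 and 10.08 in parental EpiLCs, a change of -0.84 ± 0.10 (adjusted p = 6.43e-05, limma). Bambi read 7.09 and 7.15 in parental aggregates, against 7.78 and 7.72 in parental EpiLCs, a change of -0.63 ± 0.08 (adjusted p = 5.76e-05). In that line limma called 0 of 10 members between stages, with 2 at an unadjusted p under 0.05, against 6.59% of all genes. The Tfap2c line gave 0 of 10 as well, with 4 at an unadjusted p under 0.05, against 6.12% of all genes, and Smad7 and Bambi changed by -0.61 and -0.65 there. Msx1 in the Tfap2c line differed between stages by 0.90 ± 0.31 (adjusted p = 0.0458, limma) and was called without replicate 2 of either stage. Its EpiLC mean of 3.38 lay under the filter level, and the other Msx1 probe set gave 0.24 ± 0.30 for the same change.

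The 3 other lines had called members between stages. In the Blimp1 line 5 of 10 members were called between day 1 and EpiLCs, against 9.72% of all genes: Id2 (1.48) and Id4 (1.69) rose, and Id3 (-1.17), Smad7 (-2.73) and Bambi (-1.24) fell. In the Prdm14 line 4 of 10 were called, against 8.06% of all genes: Id2 (1.13) and Id4 (3.34) rose, and Smad6 (-3.03) and Smad7 (-1.24) fell. In the BP14A line 2 of 10 were called, against 10.6% of all genes: Id4 rose by 4.09 and Smad6 fell by 2.36. The Id2 call of the Prdm14 line ended when the 3 probe sets were averaged (0.70), without Prdm14 EpiLC replicate 2 (0.80) and with only the arrays compared (adjusted p = 0.0503, limma). The Smad6 call of the BP14A line ended with only the arrays compared (adjusted p = 0.0746, limma), and its change was -1.48 without day 1 replicate 1.

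The difference of stage changes between a line and the parental line tests whether both changed differently between EpiLCs and day 1. Parental aggregates had doxycycline too, and transgene and clone cannot be told apart in this contrast. It called 3 of 10 members in BP14A (Id2, Id4 and Smad6; 6.95% of all genes), 4 in Blimp1 (Id2, Id3, Id4 and Smad7; 2.4%), 3 in Prdm14 (Id2, Id4 and Smad6; 4.55%) and 0 in the Tfap2c line (0.0%), where 0 members had an unadjusted p under 0.05. For Id4 the difference was 3.83 ± 0.32 in BP14A (adjusted p = 5.95e-06, limma), 1.43 ± 0.32 in Blimp1 (adjusted p = 0.0175) and 3.08 ± 0.32 in Prdm14 (adjusted p = 5.67e-05). For Smad7 in the Blimp1 line it was -1.89 ± 0.15 (adjusted p = 2.04e-05, limma), so Smad7 fell further between stages there than in the parental line. The BP14A calls of Id2 and Smad6 ended under several left-out arrays, down to a count of 1, and the Blimp1 calls of Id3 and Id4 likewise, down to a count of 2.

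The BP14A line differed from the Blimp1 line on day 1, and transgene and clone cannot be told apart in this comparison. Between BP14A and Blimp1 aggregates 5 of 10 members were called, against 6.47% of all genes. Id3 (1.90 ± 0.14, adjusted p = 8.61e-07, limma), Id4 (2.31 ± 0.23) and Smad7 (2.04 ± 0.10, adjusted p = 4.60e-08) were higher in BP14A, and Id2 (-1.36 ± 0.23, adjusted p = 0.000712) and Smad6 (-1.85 ± 0.38) were lower. The Smad6 call did not hold without BP14A replicate 1 (-0.97). Between BP14A and Prdm14 aggregates limma called 0 of 10 members, with 3 at an unadjusted p under 0.05, against 1.05% of all genes; Id3 differed by 0.69 ± 0.14 (adjusted p = 0.0108), under 2-fold. Without BP14A replicate 1 Smad6 was called there and the count was 1. Between BP14A and Tfap2c aggregates 3 of 10 were called, against 7.02% of all genes: Id2 (1.20) and Id4 (4.17) higher and Smad6 (-2.14) lower. That Id2 change was 0.62 when the probe sets were averaged, and that Smad6 change was -1.26 without BP14A replicate 1.

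The BP14A change was also set against the sum of the 3 single-transgene changes on the log2 scale. These lines differ in more than their own transgene. Tfap2c averaged 9.60 in Blimp1, 10.81 in Prdm14 and 5.94 in Tfap2c aggregates, against 6.34 in parental aggregates. Prdm1 averaged 7.31 in Prdm14 and 6.36 in Blimp1 aggregates. The sum is thus over lines, each 1 clone, and the share of single factors was not tested. For Smad7 the sum was -2.46, while BP14A aggregates changed by -0.08, a difference of 2.39 ± 0.21 (adjusted p = 0.000121, limma). For Id3 the sum was -0.63 and the BP14A change 0.84, a difference of 1.47 ± 0.28 (adjusted p = 0.0272). These were the 2 of 10 members called, against 0.892% of all genes. Smad7 and Id3, which were called lower in the Blimp1 line, were not called lower in the BP14A line. Id2 differed from its sum of 2.90 by -1.96 ± 0.46 (adjusted p = 0.0602, limma) and passed under 5 alternatives. For Id4 the BP14A change of 3.87 and the sum of 4.40 differed by -0.53 ± 0.45 (adjusted p = 0.640). The Id3 call ended with median centring (adjusted p = 0.0517, limma) and under 7 of 10 left-out arrays.

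**Figure D4:**
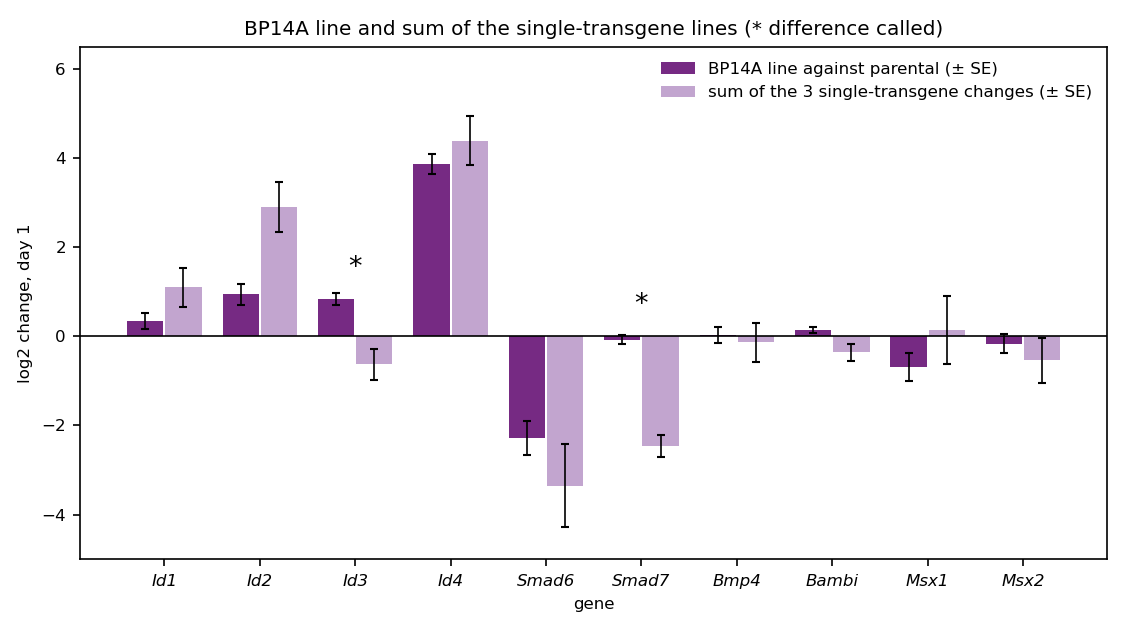
Log2 change on day 1 for each of the 10 members in the BP14A line and as the sum of the 3 single-transgene lines, each against the parental line, with limma SE as error bars and an asterisk where the difference between both bars was called. The bars part for Smad7 (-0.08 in BP14A, -2.46 as the sum) and Id3 (0.84 and -0.63), and lie close for Id4 (3.87 and 4.40).

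Of the other BMP pathway genes on a list chosen by function, 41 were tested: ligands, receptors, coreceptors, receptor and common SMADs, extracellular antagonists, intracellular inhibitors, E proteins and further BMP targets. Against the parental line on day 1, 3 were higher and 3 lower in BP14A, 1 higher and 1 lower in Blimp1, 0 higher and 3 lower in Prdm14 and 0 in either direction in Tfap2c aggregates, where 6.62%, 2.6%, 5.38% and 0.0286% of all genes were called in the same 4 comparisons. The 3 lower calls in Prdm14 include Rgma and Fstl3, and those in BP14A include Rgma, for which both groups' means lay under the filter level. Their median change was -0.13, 0.07, -0.10 and 0.01 in these lines, beside -0.02, 0.03, -0.04 and -0.03 over all genes. None of the 7 receptors, 5 SMADs and 3 E proteins tested was called in any of the 4 lines.

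The antagonist gene Fst, whose product follistatin binds activins and some BMPs, had the largest called changes among these pathway genes against the parental line on day 1. It read 5.81 and 5.93 in BP14A, 6.71 and 6.84 in Blimp1, 6.14 and 6.07 in Prdm14 and 9.59 and 9.73 in Tfap2c aggregates, against 9.80 and 9.23 in parental aggregates. The first 3 lines lay far below the other pair, with changes of -3.65 ± 0.22 (adjusted p = 1.33e-07, limma), -2.74 and -3.41. In parental cells Fst was higher in aggregates than in EpiLCs, by 2.20 ± 0.22 (adjusted p = 1.17e-05, limma). The ligand gene Bmp7 read 6.74 and 6.40 in BP14A, 7.11 and 7.27 in Blimp1, 5.91 and 6.05 in Prdm14 and 5.63 and 5.32 in Tfap2c aggregates, against 5.36 and 5.33 in parental aggregates. Its BP14A and Blimp1 arrays lay above the rest, and it rose by 1.23 ± 0.16 and 1.85 ± 0.16 there. Hey1, a Notch and BMP target encoding a repressor, rose only in the BP14A line among the 4 comparisons, by 1.92 ± 0.25, and it was called higher in BP14A than in each single-transgene line, with the smallest difference against Prdm14 aggregates, 1.49 ± 0.25 (adjusted p = 0.00389, limma). Fstl1 was higher by 1.39 ± 0.10 in BP14A than in parental aggregates. Zeb2, which encodes a SMAD-binding repressor, was lower by 1.62 ± 0.34 in the same comparison, although it was called higher there than in BP14A EpiLCs.

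**Figure D5:**
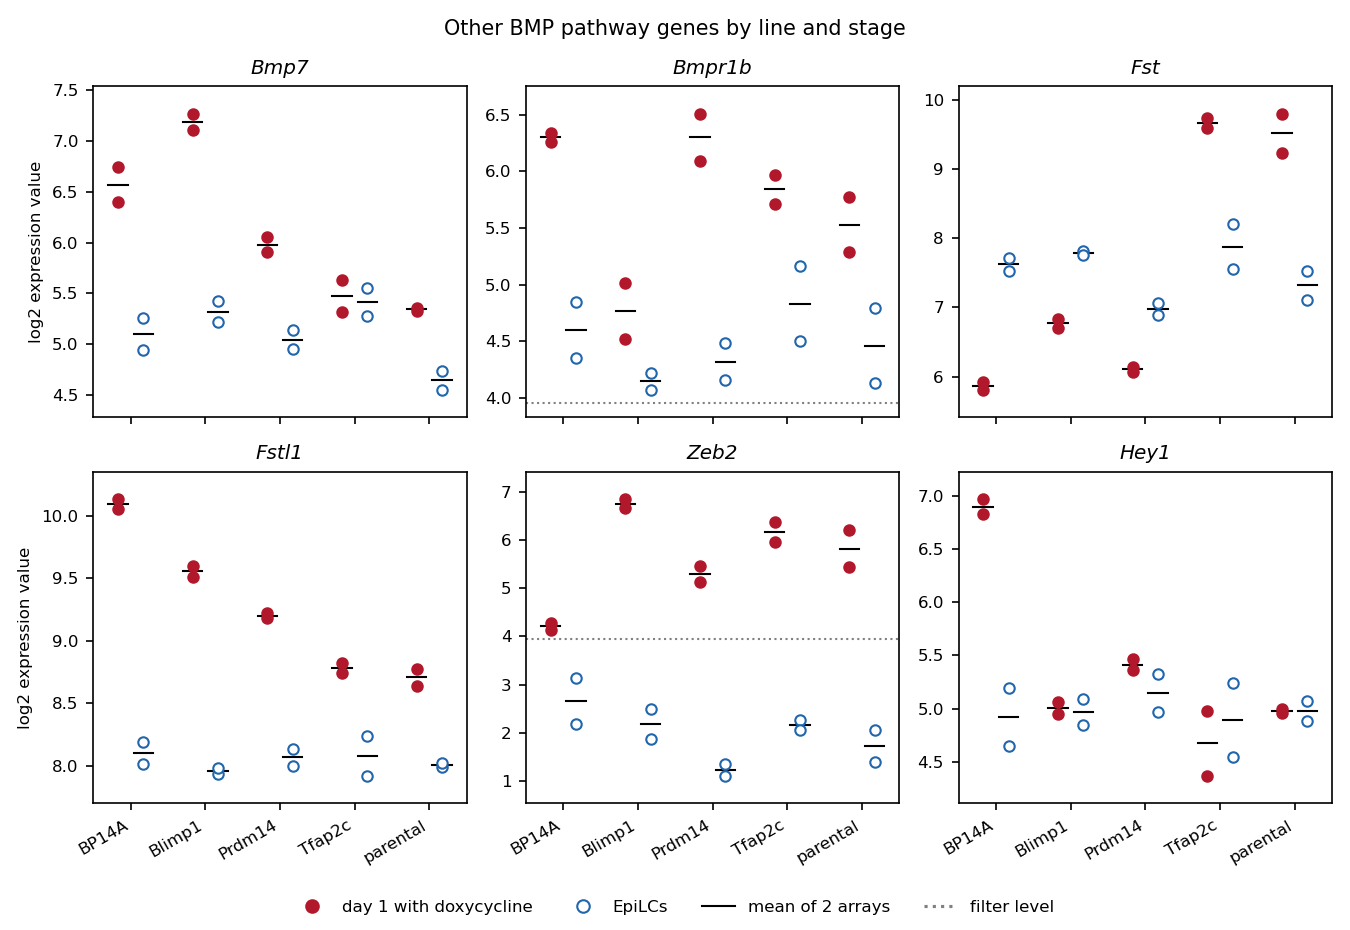
Log2 value of 6 other BMP pathway genes called in at least 1 comparison (1 panel per gene) by line, with aggregates at day 1 and EpiLCs; points are arrays, lines are means of 2 arrays and the dotted line is the filter level of 3.95. Fst is lower in BP14A, Blimp1 and Prdm14 aggregates (5.81 to 6.84) than in Tfap2c and parental aggregates (9.23 to 9.80), and Bmp7 is highest in Blimp1 aggregates.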

How the data were processed

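Per the labels' protocols, total RNA was column-purified and labelled with biotin as cRNA by Affymetrix's one-cycle method. The authors' deposited table holds 1 log2 value per probe set and array; base 2 was inferred from the values, with normalization and software not given in the sources used here. Replicate arrays correlated across probe sets at r = 0.966 to 0.976, and 2 arrays per group limit the precision. P-values rest on the spread between duplicates, pooled over the 10 groups and moderated by limma, and do not measure the spread between clones.

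Probe sets with 1 gene symbol were kept when their highest group mean reached the 40th percentile of all values (3.95), and the brightest stood for its gene. A model with 10 group means was fitted by limma 3.58.1 (R 4.3.3) to all 20 arrays, with 10 residual degrees of freedom, and 21 contrasts were read from it. Samples were grouped by their labels. The named genes are all 10 members, called genes of the pathway list (at most 6 a contrast) and, for members spanning 2 log2 units, the 3 tested genes most like them. Members and lists were chosen with earlier results of these data known. The Rgma and Fstl3 levels and the genes of the transgenes were looked at after values were seen. Alternatives were other filters, probe set averages, other scalings, an intensity trend, a replicate block, smaller fits and left-out arrays. The fit was tested on simulated data. Whether replicate numbers pair the arrays was checked: deviations correlated at -0.06 to 0.20 over 45 pairs of groups, with a median of 0.02. Of these pairs 6 were over 0.1, so a shared part in some groups is not excluded. The main fit did not pair the arrays.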

Additional observations from a re-analysis of the deposited data

Results flagged for a closer look

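The change between day 1 and EpiLCs differed between a transgenic line and the parental line, by the interaction contrast of limma, for 10 combinations of gene and line. In the BP14A line the stage change exceeded that of the parental line by 1.12 ± 0.32 (SE) for Id2 (adjusted p = 0.0303, limma) and by 3.83 for Id4, and for Smad6 it differed by -2.05 ± 0.54 (adjusted p = 0.0191). In the Blimp1 line the differences were 1.76 for Id2, -1.07 for Id3, 1.43 for Id4 and -1.89 for Smad7. In the Prdm14 line they were 1.41 for Id2, 3.08 for Id4 and -2.72 for Smad6. All of these lines are compared with the same 4 parental arrays, so the values are not independent between lines. Id2 had the same direction in each of these lines, although 1 of its 3 probe sets differed. That probe set averaged 4.73 in parental EpiLCs and 5.07 in parental aggregates, 4.71 and 4.67 in BP14A, and 4.92 and 5.00 in Prdm14. Its differences in BP14A and Prdm14 thus went the other way, and in Blimp1 (4.66 and 5.11) the same way. With the probe sets averaged the BP14A difference was 0.56 (adjusted p = 0.110, limma), the Blimp1 difference 1.12 and the Prdm14 difference 0.77.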

How the results depend on the processing

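None of the called values that were recomputed changed sign under the alternatives run. Differences that were not called were not recomputed, and further probe sets of a gene, taken singly, were left out of this sign check. The third Id2 probe set went against a call: it averaged 4.67 in BP14A and 5.21 in Tfap2c aggregates, where Id2 was called higher in BP14A. With an array left out, 15 of 106 recomputed counts left the range of 1.5 times the value reported. Under the other settings, 184 of 189 recomputed counts stayed within it. These include comparisons with a reported count of 0, for which staying meant a count of 0 again. With only the arrays compared in the fit, the count was 1 for BP14A against parental on day 1, 2 for Blimp1 against parental, 1 for the BP14A stage change and 2 for the Blimp1 difference of stage changes; fewer arrays leave fewer degrees of freedom. Median centring gave 1 for the BP14A line against the sum of single changes; the cause was not tested. Over left-out arrays the counts ran from 2 to 4 for BP14A against parental on day 1, 0 to 1 for the Tfap2c stage change and for BP14A against Prdm14, 1 to 3 for the BP14A and 2 to 4 for the Blimp1 difference of stage changes, and 1 to 3 for the sum. In these fits a lone array is assumed to vary like other groups. With replicate number as a block, the counts in the day 1 comparisons with parental were as in the fit without it. They were 2 in BP14A, 4 in Blimp1, 2 in Prdm14 and 0 in Tfap2c aggregates. For the sum the count was 3, where Id2 was added. Of 312 called values recomputed under the other settings, 295 kept their call and 17 lost it; of 208 with an array left out, 180 kept it and 28 lost it. Without BP14A day 1 replicate 1, the Smad6 difference of stage changes was -1.17. Median centring shifted the median of all genes by at most -0.10 and quantile normalization by -0.09. Smad6 in BP14A and Prdm14 aggregates, Msx1, Rgma and Fstl3 lie near or under the filter level, which limits their sizes.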

Other observations

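Other genes followed the 4 members with the widest range most closely over the 20 arrays. These Pearson correlations describe arrays that share lines and stages and were given no test. The genes were picked for this likeness, so a like order of lines follows from the choice. For Id4 they were Gjc1 (r = 0.983), a gap junction gene, Sox2 (0.978), which encodes a pluripotency factor, and Sgo2a (0.978), which encodes a protector of chromosome cohesion. Sox2 averaged 12.55 in BP14A, 11.83 in Blimp1, 12.50 in Prdm14 and 10.47 in Tfap2c aggregates, against 10.71 in parental aggregates, the same order of lines as Id4. For Id2 they were Cited2 (0.877), Pias3 (0.847) and Uba6 (0.839), and all were highest in Blimp1 aggregates. For Smad6 they were Mrps33 (0.952), Vsig10 (0.950) and Dennd1b (0.950), and for Smad7 Creld1 (0.956), Wdyhv1 (0.955) and H2-Q10 (0.955). Vsig10 averaged 5.12 in BP14A, 6.77 in Blimp1, 5.15 in Prdm14 and 6.74 in Tfap2c aggregates, against 6.80 in parental aggregates.

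Among the other pathway genes, Zeb2 was called higher in aggregates than in EpiLCs in every line. Its EpiLC means, 1.23 to 2.66, all lay under the filter level, so the sizes of these changes and their order between lines are not given. On day 1 it averaged 4.21 in BP14A, 6.76 in Blimp1, 5.30 in Prdm14 and 6.17 in Tfap2c aggregates, against 5.83 in parental aggregates. Bmpr1b, a type I BMP receptor gene, averaged 6.30 in BP14A, 4.77 in Blimp1, 6.30 in Prdm14 and 5.84 in Tfap2c aggregates, against 5.53 in parental aggregates. It rose between stages in the BP14A (1.70), Prdm14 (1.98), Tfap2c (1.01) and parental (1.07) lines, and was higher in BP14A than in Blimp1 aggregates by 1.54 ± 0.29 (adjusted p = 0.00173, limma).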
